A study of Mus musculus with 10 samples.

Results

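The genes described here are 30 listed genes of lipid and sterol synthesis, taken from the array's value table with the brightest probe set that carries a single gene symbol. Of the 30, 29 had such a probe set. Idi1, an isomerase of the isoprenoid branch, was left out because its probe set is shared with Gm13502. All 29 passed the filter on dim probe sets and were tested among 18826 genes, out of 22180 gene symbols in the table. The arrays came from cells isolated by enzyme digestion from the salivary gland of female NOD/shiLtJ mice, an inbred strain that develops autoimmune diabetes and salivary gland inflammation. The 3 groups were mice aged 21 weeks with type 1 diabetes (n = 4), mice aged 21 weeks with no diabetes (n = 3) and mice aged 6 weeks with no diabetes (n = 3). The labels name no transgene and no drug in any group. They do not say how diabetes was established, which of the salivary glands was taken, or whether an array holds RNA of 1 mouse or of several. They number the samples within each group, so p-values measure the spread between these samples.

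Cells make fatty acids in the cytosol from citrate by way of acetyl-CoA and malonyl-CoA, and join them to glycerol to form triglyceride. Cholesterol is built from the same acetyl-CoA through mevalonate, isoprenoids and squalene. Many enzymes of both routes are induced by the transcription factors SREBP, encoded by Srebf1 and Srebf2, which are held in the endoplasmic reticulum by Insig proteins when sterols are plentiful. In liver and fat, insulin raises Srebf1 and glucose activates the product of Mlxipl. The salivary gland is an exocrine tissue whose cells spend much membrane lipid on secretory granules.

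Promoter windows, from 250 bases before to 50 bases after a gene start, were held by the RefSeq table (GRCm38.p6) for 24 of the 30 listed genes. Both strands were searched for TCACNCCAC, the core of the sterol element that SREBP binds, for CACGTG, an E-box, and for CCAAT, the box of NF-Y, a usual partner of SREBP. The sterol element was found in 2 of the 24 genes, Hmgcs1 and Mlxipl, against 1.44% of all genes in the table. The E-box was found in 5 genes (Dhcr7, Elovl5, Insig1, Mlxipl and Sc5d), against 8.09% of all genes. CCAAT was found in 22 of the 24, against 41.1% of all genes. Overlapping matches occurred once, in Fasn, where a CCAAT and its reverse complement shared 2 bases. These matches are letters in a window and not shown to be sites. Of the members that passed the test below, Srebf1 had 3 windows without a match to TCACNCCAC or CACGTG, and Dgat2 had no entry. Only these patterns were searched, so sterol elements or E-boxes of another spelling were not looked for. The upstream part of 2 windows is shown, Hmgcs1 as the enzyme gene with both the sterol element and CCAAT, and Srebf1 as the gene that fell with diabetes (the window at its start farthest downstream). Capitals mark the matches, written 5′ to 3′ on the gene's strand.
Hmgcs1, chr13:119690101-119690350, plus strand: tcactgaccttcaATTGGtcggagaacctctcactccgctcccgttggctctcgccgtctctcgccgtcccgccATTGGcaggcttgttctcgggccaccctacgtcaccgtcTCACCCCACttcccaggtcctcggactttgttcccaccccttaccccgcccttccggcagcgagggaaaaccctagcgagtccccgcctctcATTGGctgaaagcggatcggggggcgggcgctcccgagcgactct
Srebf1, chr11:60210472-60210721, minus strand: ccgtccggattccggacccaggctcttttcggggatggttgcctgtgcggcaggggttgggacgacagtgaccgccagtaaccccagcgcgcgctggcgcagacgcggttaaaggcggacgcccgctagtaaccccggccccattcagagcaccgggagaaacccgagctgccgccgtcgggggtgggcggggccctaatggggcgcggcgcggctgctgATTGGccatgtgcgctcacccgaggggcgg
In Hmgcs1 the sterol element began at position −137 from the start, with upstream CCAAT boxes on the minus strand at −237, −176 and −45. In Srebf1 the CCAAT box on the minus strand began at −30.

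Values are log2 intensities, and a difference of 1 is a 2-fold change. The levels of the 29 genes can be compared between arrays but not between genes. On every array 27 of the 29 lay above the array's median probe set. Stard4 (3.13 to 3.74) did so on 1 array and Cyp51 on 9, so their changes may be compressed by background. Dgat2 (3.86 to 4.60) did so on every array, but not far above the array medians of 3.53 to 3.69. None of the 29 lay below the 25th percentile of any array. One array, number 3 of the nondiabetic 21-week group, resembled the rest least (r of 0.901 to 0.93 over all probe sets, where the remaining 9 had 0.94 to 0.975 with each other), and results are given without it where it matters. Acinar markers were bright in every group, with Aqp5, the water channel of acinar cells, between 8.59 and 9.23.

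The members did not move as a block. The heat map of single arrays shows rows that are high in different groups, and few columns that are high or low throughout. The diabetic group had the highest mean for 14 of the 29 genes (37.1% of all genes) and the nondiabetic 21-week group the lowest for 14 (41.6% of all genes). Without array 3 of the nondiabetic 21-week group the second count was 11 (37.9%, with 30.3% of all genes). That array had the lowest value for 6 members, 20.7%, against 31.5% of all genes. The mean over the 29 genes was between 5.29 and 5.5 in the diabetic arrays, between 5.23 and 5.36 in the nondiabetic 21-week arrays and between 5.35 and 5.40 in the 6-week arrays.

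**Figure D1:**
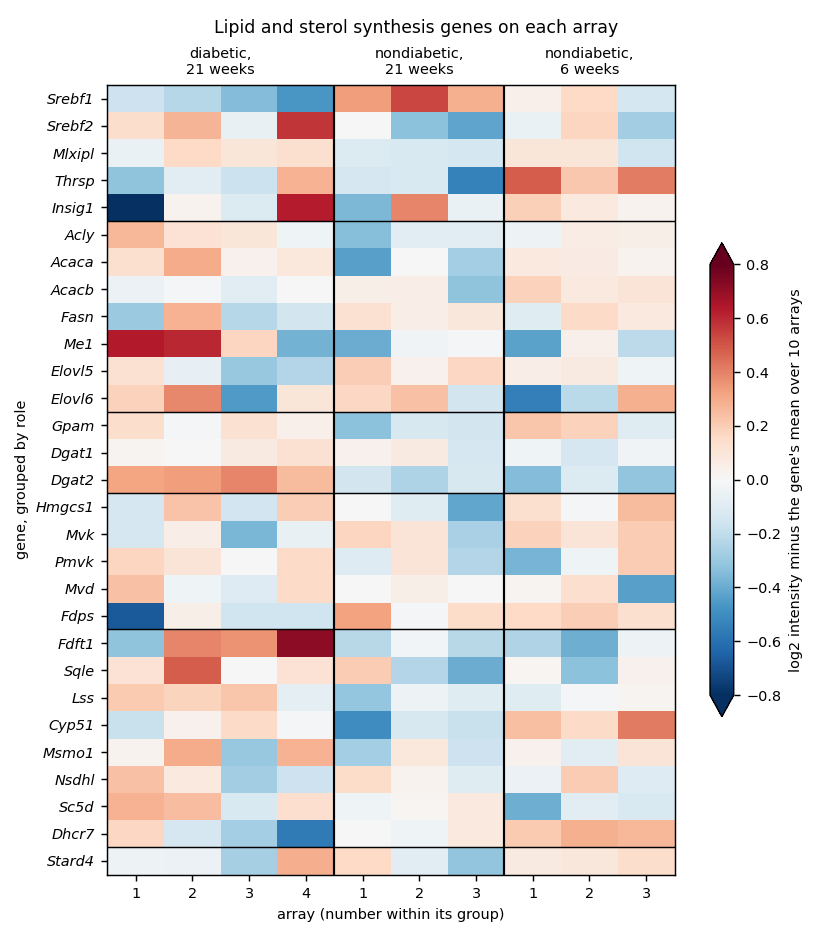
Each cell is the log2 intensity of a gene on an array minus that gene's mean over the 10 arrays, with genes in rows by role and arrays in columns by group. Srebf1 is low on the 4 diabetic arrays and high on the 3 nondiabetic 21-week arrays, Dgat2 is high on the 4 diabetic arrays, and Insig1, Me1 and Fdft1 differ widely among diabetic arrays.

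The first comparison set diabetic against nondiabetic glands at 21 weeks, the contrast named in the series text. Srebf1, the regulator of fatty acid synthesis genes, was the member that passed the test, and it fell 1.60-fold in the diabetic glands. By limma with Benjamini-Hochberg adjustment 0 of 29 rose, 1 fell and 28 did not pass. Over all genes tested 1.1% rose (207) and 0.34% fell (64), or 130 and 100 after quantile normalization. Unadjusted, 7 members were higher and 2 lower at p under 0.05, against 10.8% and 5.04% of all genes. The median log2 change was 0.19 over the members and 0.03 over all genes, and 20 members were above 0 (69%) against 56% of all genes. The members' median was 0.08 without nondiabetic array 3 (all genes −0.02), 0.11 without diabetic array 4, 0.05 with quantile normalization and 0.02 without both arrays. The count above 0 was 16 under each of the last 2 settings. The interval of 95% around each change lay within a 2-fold difference for all 29 genes and within a 1.5-fold difference for 20 of them. In 5 members all diabetic arrays lay above all nondiabetic 21-week arrays (17.2%, with 9.11% over all genes), and in 1 all lay below (3.45%, with 4.98% over all genes).

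**Figure D2:**
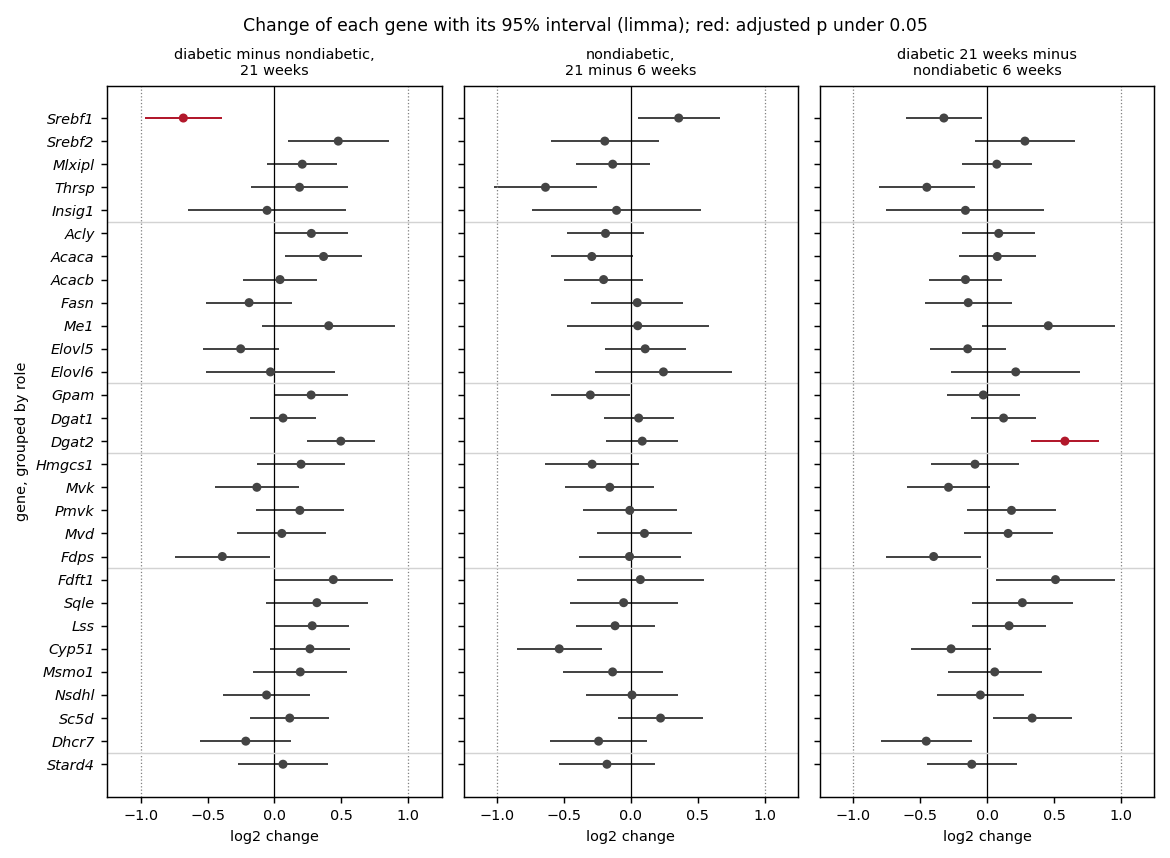
Points are limma log2 changes of the 29 genes in the 3 comparisons and lines are 95% intervals, with dotted lines at a 2-fold difference. Srebf1 is the gene past an adjusted p of 0.05 in the first panel (−0.68) and Dgat2 in the last (0.58), and no gene passes in the second.

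Among the regulators, Srebf1 stood at 5.54, 5.48, 5.36 and 5.24 with diabetes, at 6.04, 6.24 and 5.99 without it at 21 weeks, and at 5.75, 5.87 and 5.57 at 6 weeks. The 3 groups did not overlap, in the order nondiabetic at 21 weeks, nondiabetic at 6 weeks, diabetic. The log2 change with diabetes was −0.68 ± 0.13 (SE; limma adjusted p = 0.023). It kept its size when an array was left out, between −0.61 and −0.73, but the call was lost without diabetic array 3 (adjusted p = 0.0809) and without nondiabetic 21-week array 1 (0.0552), 2 (0.0774) or 3 (0.056). The array has 1 probe set for the gene, so its transcripts from different starts cannot be told apart. In bulk RNA, fewer cells of a type and less RNA per cell cannot be told apart either.

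Srebf2, the regulator of sterol synthesis genes, lay on the other side, at 6.16, 6.29, 5.96 and 6.59 in the diabetic arrays against 6.02, 5.69 and 5.60 in the nondiabetic 21-week arrays. Diabetic array 3 lay below nondiabetic array 1, so the groups overlapped. Its log2 change was 0.48 ± 0.17 (limma adjusted p = 0.202). Mlxipl, the glucose-sensing factor, was at 4.28 to 4.49 in the diabetic and 4.19 to 4.22 in the nondiabetic 21-week arrays, a difference of 0.21 ± 0.12 (limma adjusted p = 0.413). Thrsp, a nuclear protein tied to lipogenesis, differed by 0.19 ± 0.16 (limma adjusted p = 0.614).

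Insig1, the retention protein of the SREBP system and itself a sensitive SREBP target, was the member with the widest spread within groups. Its diabetic values were 6.81, 7.65, 7.51 and 8.25, a range of 1.44, against 7.26, 8.01 and 7.57 at 21 weeks without diabetes and 7.81, 7.70 and 7.65 at 6 weeks. The diabetic group thus held both the highest and the lowest value of the 10 arrays. The log2 change with diabetes was −0.06 ± 0.27 (limma adjusted p = 0.946), with a 95% interval from −0.64 to 0.53.

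Fatty acid synthesis showed no call among its 7 genes, of which 2 were higher at an unadjusted p under 0.05 (limma, with 10.8% of all genes). Acaca, the carboxylase that makes malonyl-CoA in the cytosol, was at 4.51, 4.68, 4.42 and 4.47 in the diabetic arrays and at 3.95, 4.39 and 4.11 in the nondiabetic 21-week arrays. These groups did not overlap (0.37 ± 0.13, limma adjusted p = 0.198). Acly, which makes acetyl-CoA from citrate, was at 8.19, 8.04, 8.02 and 7.89 against 7.58, 7.84 and 7.84, again without overlap (0.28 ± 0.12, limma adjusted p = 0.294). Fasn, the synthase that assembles palmitate, ranged from 5.33 to 5.91 in the diabetic and from 5.68 to 5.75 in the nondiabetic 21-week arrays, a difference of −0.19 ± 0.15 (limma adjusted p = 0.56). Its 95% interval ran from −0.51 to 0.13.

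The elongases and the remaining enzymes of the route gave smaller or more scattered values. Elovl5, an elongase of polyunsaturated fatty acids, differed by −0.25 ± 0.13 and Elovl6, which lengthens palmitate, by −0.03 ± 0.22. Acacb, the carboxylase whose malonyl-CoA restrains fatty acid oxidation, differed by 0.04 ± 0.12. Me1, the malic enzyme that supplies NADPH, was at 5.21, 5.18, 4.75 and 4.20 in the diabetic arrays against 4.18, 4.55 and 4.56. Diabetic arrays 1 to 3 lay above the nondiabetic ones and array 4 within their range (0.41 ± 0.23, limma adjusted p = 0.407).

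In glycerolipid synthesis 0 of 3 genes passed, and 2 were higher at an unadjusted p under 0.05 (limma, with 10.8% of all genes). Dgat2, an acyltransferase of the last step of triglyceride synthesis, was at 4.52, 4.54, 4.60 and 4.46 in the diabetic arrays. Without diabetes it was at 4.06, 3.96 and 4.08 at 21 weeks, and at 3.86, 4.10 and 3.89 at 6 weeks. The diabetic arrays lay above all 6 others, while both nondiabetic groups overlapped. Against nondiabetic glands of the same age the change was 0.50 ± 0.11, or 1.41-fold, and just missed the threshold (limma adjusted p = 0.0514). It passed when dim probe sets were filtered at the array median (0.0342), and ranged up to 0.158 over the alternatives. Dgat1, the other enzyme of that step, differed by 0.06 ± 0.11 (limma adjusted p = 0.82). Gpam, which starts glycerolipid synthesis, was at 6.71, 6.55, 6.69 and 6.61 against 6.24, 6.44 and 6.42, without overlap (0.27 ± 0.12, limma adjusted p = 0.303).

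In the mevalonate and isoprenoid steps 0 of 5 genes passed, and 1 was lower at an unadjusted p under 0.05 (limma, with 5.04% of all genes). That was Fdps, the synthase of farnesyl diphosphate, at 4.51, 5.23, 5.02 and 5.02 in the diabetic and 5.50, 5.17 and 5.33 in the nondiabetic 21-week arrays. Diabetic array 1 was the low one, and array 2 lay within the nondiabetic range (−0.39 ± 0.16, limma adjusted p = 0.266). Hmgcs1, whose promoter window held the sterol element, differed by 0.20 ± 0.15 (limma adjusted p = 0.549), with 5.75 to 6.13 in the diabetic and 5.49 to 5.91 in the nondiabetic 21-week arrays. Mvk, Pmvk and Mvd, which turn mevalonate into isopentenyl diphosphate, differed by −0.13 ± 0.14, 0.19 ± 0.15 and 0.05 ± 0.15.

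From squalene to cholesterol 0 of 8 genes passed and 6 were above 0 (56% of all genes). At an unadjusted p under 0.05, 2 were higher (limma, with 10.8% of all genes). Fdft1, squalene synthase, was at 5.35, 6.06, 6.03 and 6.39 in the diabetic arrays and at 5.45, 5.65 and 5.45 in the nondiabetic 21-week arrays. Diabetic array 1 lay below every nondiabetic 21-week array and arrays 2 to 4 above them all (0.44 ± 0.20, limma adjusted p = 0.316). Lss, which closes the rings to form lanosterol, differed by 0.28 ± 0.12 (limma adjusted p = 0.292), with 5.29, 5.26, 5.30 and 5.0 against 4.77, 5.04 and 4.98. Diabetic array 4 lay within the nondiabetic range. Sqle, squalene epoxidase, differed by 0.32 ± 0.17 and Cyp51, the demethylase of lanosterol, by 0.27 ± 0.13 (limma adjusted p = 0.397 and 0.363). Msmo1 and Nsdhl, which remove further methyl groups, differed by 0.19 ± 0.16 and −0.06 ± 0.15. The late enzymes Sc5d and Dhcr7 differed by 0.11 ± 0.13 and −0.21 ± 0.15. Stard4, a cytosolic sterol carrier, differed by 0.06 ± 0.15.

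**Figure D3:**
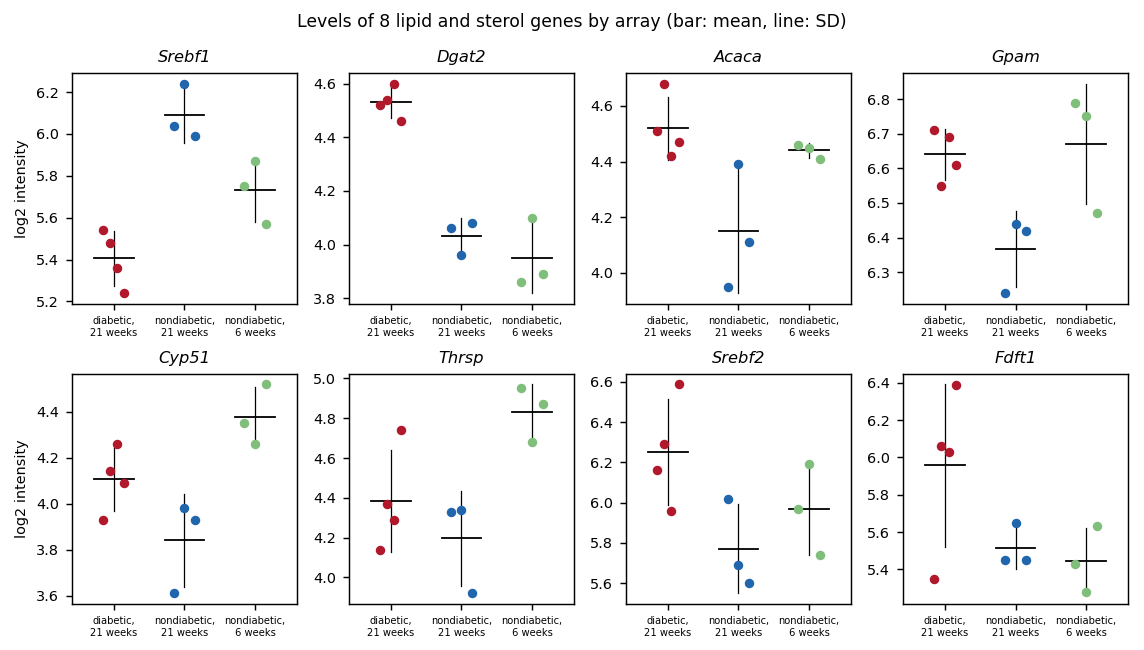
Points are log2 intensities of 8 genes on single arrays by group, bars are group means and vertical lines SDs, and each panel has its own scale that does not start at 0. The groups are fully apart for Srebf1, the diabetic arrays alone are high for Dgat2, and the nondiabetic 21-week arrays lie lowest on average for Acaca, Gpam, Cyp51, Thrsp and Srebf2.

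The diabetic arrays differed among themselves in opposite ways for different members. Array 4 was the highest diabetic array for members such as Srebf2, Thrsp, Insig1, Fdft1 and Stard4. It was the lowest for others such as Srebf1, Acly, Me1, Lss and Dhcr7. Array 1 was the lowest diabetic array for members such as Insig1, Fdps and Fdft1. It was the highest for others such as Acly, Me1, Elovl5, Nsdhl and Dhcr7. Array 4 also had the highest mean over the lymphocyte markers, 6.05 against 4.30 to 4.46 in the other diabetic arrays. Whether that bears on these members was not tested. The members whose spread within groups ranked highest among all genes were Insig1 (percentile 96.4), Me1 (90.6), Elovl6 (89.2) and Fdft1 (84). The median SD within groups was 0.185 over the members and 0.204 over all genes.

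The second comparison set nondiabetic glands at 21 weeks against those at 6 weeks. No member passed: by limma 0 of 29 rose or fell, and 1 was higher and 3 lower at an unadjusted p under 0.05, against 2.19% and 5.27% of all genes (7.47% together). Over all genes 0.0266% passed: 0.00531% rose (1) and 0.0212% fell (4). The median log2 change was −0.11 over the members and −0.06 over all genes, and 11 members were above 0 (37.9%, with 38.2% over all genes). Without nondiabetic 21-week array 3 these medians were −0.0285 and −0.0016, and 12 members were above 0. In 7 members the 21-week arrays lay below the 6-week arrays (24.1%, with 9.73% over all genes) and in 2 above (6.9%, with 4.11%). The 95% interval lay within a 2-fold difference for 28 of the 29, the exception being Thrsp.

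The members with the smallest p were lower in the older glands. Cyp51 was at 3.61, 3.98 and 3.93 at 21 weeks and at 4.35, 4.26 and 4.52 at 6 weeks (−0.54 ± 0.14, limma adjusted p = 0.481). Thrsp was at 4.33, 4.34 and 3.92 against 4.95, 4.68 and 4.87 (−0.64 ± 0.17, limma adjusted p = 0.481), with a 95% interval from −1.01 to −0.26. Neither gene's groups overlapped. Gpam (−0.30 ± 0.13), Acaca (−0.29 ± 0.14), Acacb (−0.20 ± 0.13), Acly and Dhcr7 were lower without overlap as well, with limma adjusted p from 0.642 to 0.769. Srebf1 (0.36 ± 0.14, limma adjusted p = 0.629) and Sc5d (0.22 ± 0.14, limma adjusted p = 0.759) were the members that lay higher at 21 weeks without overlap. Hmgcs1 differed by −0.29 ± 0.16 (limma adjusted p = 0.712).

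The nondiabetic 21-week arrays enter the first and the second comparison with opposite signs, so a low value there gives a higher diabetic value and a lower older value at once. For Acaca the changes were 0.37 with diabetes and −0.29 with age, for Gpam 0.27 and −0.30, for Acly 0.28 and −0.19, and for Cyp51 0.27 and −0.54. Srebf1 had the opposite pair, −0.68 and 0.36. Diabetic 21-week against nondiabetic 6-week glands do not use those arrays, but share the diabetic arrays with the first comparison and the 6-week arrays with the second, and differ in age as well as in diabetes. There Acaca stood at 0.08 ± 0.13, Gpam at −0.03 ± 0.12 and Acly at 0.09 ± 0.12. Cyp51 stood at −0.27 ± 0.13, below the 6-week arrays without overlap (limma adjusted p = 0.381). Srebf1 was lower as well, at −0.32 ± 0.13 (limma adjusted p = 0.259).

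In that comparison Dgat2 was the member that passed. It rose 1.5-fold (0.58 ± 0.11, limma adjusted p = 0.0285), and by limma 1 of 29 rose, 0 fell and 28 did not pass. Over all genes 0.903% rose (170) and 0.542% fell (102), or 157 and 162 after quantile normalization. Unadjusted, 3 members were higher and 4 lower at p under 0.05, against 7.7% and 7.23% of all genes (14.9% together). The Dgat2 change stayed between 0.54 and 0.65 when an array was left out. The call held without diabetic array 4 and was lost without diabetic array 1 (adjusted p = 0.0514), 2 (0.066) or 3 (0.0907) and without 6-week array 1 (0.113), 2 (0.0604) or 3 (0.126). Without both arrays that stand apart, 2 members passed. The second was Thrsp, lower at adjusted p = 0.0347, against −0.45 ± 0.16 (limma adjusted p = 0.21) over all arrays.

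Other members of this comparison were scattered on both sides of 0, with a median of 0.06 against −0.02 over all genes, and of −0.00852 without diabetic array 4. In 2 members the diabetic arrays lay above the 6-week arrays (6.9%, with 8.2% over all genes) and in 6 below (20.7%, with 8.49%; 16.7% of all genes in either direction). Dhcr7, the reductase of the last step to cholesterol, was at 5.85, 5.55, 5.41 and 5.12 against 5.89, 5.97 and 5.95. All diabetic arrays lay below, and array 4 farthest (−0.46 ± 0.15, limma adjusted p = 0.178). Fdps was lower without overlap (−0.40 ± 0.16, limma adjusted p = 0.265), as was Mvk (−0.29 ± 0.14, limma adjusted p = 0.369). Fdft1 (0.51 ± 0.20, limma adjusted p = 0.258) and Sc5d (0.34 ± 0.13, limma adjusted p = 0.258) were higher with overlap. Without diabetic array 1, its low one, Fdft1 passed (0.71, limma adjusted p = 0.0463).

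Further genes of the same pathways came from 4 lists. Of 33 other lipogenesis genes measured, 0 rose and 1 fell with diabetes at 21 weeks and 32 did not pass (median log2 change 0.05). The gene was Scd1, a desaturase of fatty acids and a textbook target of Srebf1. It was at 6.98, 7.06, 6.74 and 6.21 with diabetes, at 8.09, 8.24 and 8.56 without it at 21 weeks, and at 7.58, 7.71 and 7.74 at 6 weeks. The order of the groups was that of Srebf1, again without overlap (−1.54 ± 0.19, limma adjusted p = 0.00182), and the call held with each array left out. Whether the change of Srebf1 bears on Scd1 was not tested. Scd3 and Scd4 differed by −0.22 ± 0.19 and 0.14 ± 0.16 with diabetes (limma adjusted p = 0.613 and 0.7). Against 6-week glands Scd1 fell 1.90-fold (limma adjusted p = 0.035) and Agpat5, an acyltransferase of phosphatidic acid synthesis, fell 1.51-fold (limma adjusted p = 0.0327), 2 of 33 with 0 rising. Agpat5 was at 5.19 to 5.47 in the diabetic arrays, 5.25 to 5.54 in the nondiabetic 21-week arrays and 5.86 to 5.90 in the 6-week arrays. Lpin1, a phosphatidate phosphatase, differed by 0.47 ± 0.14 with diabetes (limma adjusted p = 0.139). With age 0 of 33 passed by limma (3 higher and 2 lower at an unadjusted p under 0.05). Agpat5 differed by −0.47 ± 0.13 and Fads3 by −0.72 ± 0.20 with age (limma adjusted p = 0.481 for each). Without 6-week array 1, 2 or 3 or diabetic array 3, the 6-week calls of Scd1 and Agpat5 were lost (limma adjusted p from 0.0923 to 0.144). That of Agpat5 was also lost without diabetic array 1 (0.06) or 4 (0.0546).

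Of 10 genes that control SREBP or sterol uptake and trafficking, 1 rose with diabetes, 0 fell and 9 did not pass. Above 0 were 9 (median log2 change 0.27), with 56% of all genes above 0 (median 0.03). Npc1, which exports cholesterol from lysosomes, was at 5.52, 5.58, 5.52 and 5.32 in the diabetic arrays and at 4.82, 5.0 and 4.69 in the nondiabetic 21-week arrays (0.64 ± 0.13, limma adjusted p = 0.0334). Its call was lost without diabetic array 1 (0.0683), 2 (0.0901) or 3 (0.111) and without nondiabetic 21-week array 1 (0.0836) or 3 (0.134). A second Npc1 probe set (2.38 to 3.33) lay below every array's median and around the 25th percentile, too dim to bear on the rise. With the mean of both probe sets the change was 0.33. Mbtps2, a protease that releases SREBP, differed by 0.40 ± 0.13 (limma adjusted p = 0.153). Of the same 10, 0 passed with age and 0 against 6-week glands by limma, with 1 lower, and 1 higher and 1 lower, at an unadjusted p under 0.05. All 10 lay below 0 with age (median −0.22, all genes −0.06), where 38.2% of all genes lay above 0. This count and that of 9 above 0 with diabetes use the same nondiabetic 21-week arrays with opposite signs. Of these arrays number 3 had the lowest mean over the 10 genes, 5.18, against 5.37 and 5.49 in arrays 1 and 2 and 5.50 to 5.61 at 6 weeks. For Trib1 arrays 1 and 2 (6.11 and 6.09) lay above the 6-week arrays (6.0 to 6.05) and array 3 (5.70) below. The count of 10 with age thus depends on array 3. With age Mbtps2 stood at −0.37 ± 0.14 (limma adjusted p = 0.617) and Scap, the SREBP escort protein, at −0.26 ± 0.12 (limma adjusted p = 0.68). Against 6-week glands Npc1 stood at 0.41 ± 0.13 (limma adjusted p = 0.161) and Scap at −0.29 ± 0.12 (limma adjusted p = 0.259).

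Of 7 other sterol synthesis genes 0 passed in any comparison (limma; at an unadjusted p under 0.05, 2 were higher with diabetes, 0 differed with age, and 1 was higher and 1 lower against 6-week glands). Ggps1, the synthase of geranylgeranyl diphosphate, differed by 0.41 ± 0.13 with diabetes (limma adjusted p = 0.16) and by −0.28 ± 0.14 with age (0.691). Hsd17b7, a ketosteroid reductase of the pathway, differed by 0.57 ± 0.25 with diabetes (limma adjusted p = 0.3). Lbr, a sterol reductase of the nuclear envelope, differed by 0.63 ± 0.18 against 6-week glands (limma adjusted p = 0.106), with Tm7sf2, the other enzyme of that step, at −0.30 ± 0.11 (limma adjusted p = 0.211). With age Lbr differed by 0.37 ± 0.19 (limma adjusted p = 0.691). Of 10 genes of the sterol sensor LXR and of sterol efflux 0 passed in any comparison (limma; unadjusted, 2 higher and 1 lower with diabetes, 1 higher with age, 2 higher and 1 lower against 6-week glands). Abcg1, a sterol exporter, differed by 0.48 ± 0.14 (limma adjusted p = 0.133) and Apoe, the sterol-carrying apolipoprotein, by 0.69 ± 0.24 (limma adjusted p = 0.193) with diabetes. Cyp27a1, which makes an oxysterol ligand of LXR, differed by 0.33 ± 0.15 with age and 0.45 ± 0.14 against 6-week glands (limma adjusted p = 0.659 and 0.143). Abca1 differed by −0.26 ± 0.18 with age (limma adjusted p = 0.769) and Abcg1 by 0.33 ± 0.14 against 6-week glands (limma adjusted p = 0.307).

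**Figure D4:**
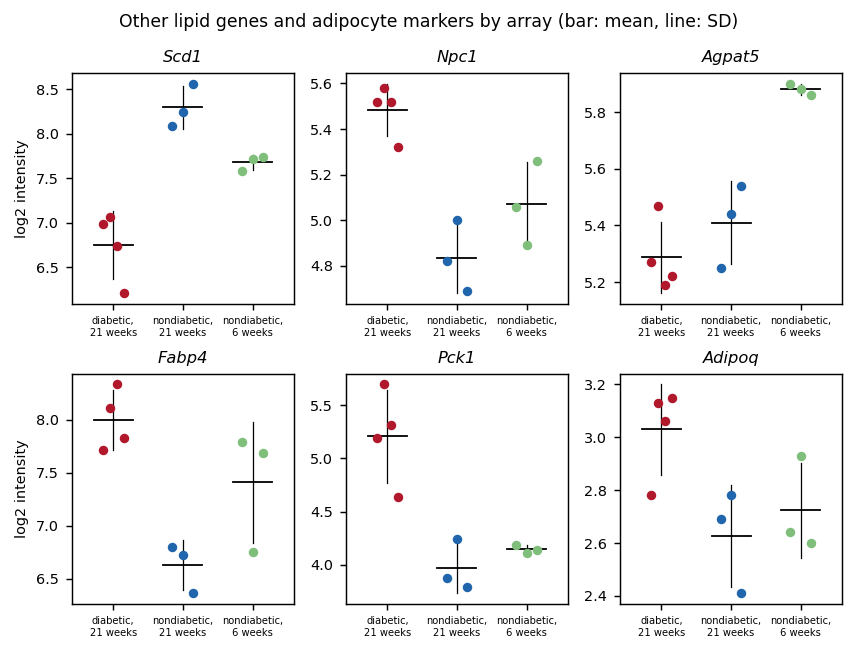
Points are log2 intensities of 3 other lipid genes and 3 adipocyte markers on single arrays by group, bars are group means and vertical lines SDs, with a scale per panel that does not start at 0. Scd1 is lowest and Npc1 and Pck1 are highest in the diabetic arrays. Fabp4 has its highest mean there but overlaps the 6-week arrays (7.72 on diabetic array 1, 7.79 on 6-week array 1). The dim Adipoq has a diabetic mean of 3.03 against 2.63 in the nondiabetic 21-week arrays.

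Markers of other cell types moved between the same groups. Among 10 adipocyte markers 4 rose with diabetes (Car3, Pck1, Fabp4 and Retn), 0 fell and 6 did not pass. The summed linear intensity of the 10 was 493 to 732 in the diabetic, 198 to 256 in the nondiabetic 21-week and 250 to 368 in the 6-week arrays. Fabp4 (7.72 to 8.34) and Car3 (6.42 to 7.91) were the brightest of them in the diabetic arrays and weigh most in that sum. Fat cells express Dgat2, Acly, Acaca and Gpam, which lay higher with diabetes. They also express Srebf1, Scd1 and Fasn, which lay lower (−0.68, −1.54 and −0.19). The defining fat markers Adipoq (2.41 to 3.15) and Lep (2.11 to 3.43) lay near the 25th percentile of the arrays, which was 2.58 to 2.70. Adipoq was nevertheless higher in every diabetic than in every nondiabetic 21-week array before rounding (0.40 ± 0.14, limma adjusted p = 0.202), while Lep differed by −0.24 ± 0.27 (limma adjusted p = 0.712). The brighter fat markers Plin4 (0.68 ± 0.18), Cidec (0.60 ± 0.24), Plin1 (0.30 ± 0.17) and Lipe (0.21 ± 0.12) were higher without passing (limma adjusted p from 0.0841 to 0.412). In all, 9 of the 10 were above 0 (56% of all genes), 7 of them without overlap (9.11% of all genes). All 9 granular tubule markers fell with diabetes (summed 336 to 1690 against 8710 to 13300, and 4180 to 5990 at 6 weeks), and 6 of 8 parotid-type serous markers rose (17900 to 20100 against 7960 to 9320, and 8260 to 13200 at 6 weeks). The granular tubule levels had the same order of groups as Srebf1 and Scd1. Immediate-early genes, which respond to tissue handling, rose in 9 of 10 cases (2420 to 3330 against 1120 to 1350, and 1010 to 1310 at 6 weeks), and 2 of 6 macrophage markers rose (363 to 760 against 211 to 239, and 198 to 323). Of 5 myoepithelial markers 2 rose, Acta2 by 1.26 and Myh11 by 0.91 on the log2 scale, and all 5 had an unadjusted p under 0.05 (summed 202 to 295 against 87.9 to 146, and 128 to 148). Of 4 sublingual mucous markers 1 rose, Galnt12 (limma adjusted p = 0.0458). The 4 summed to 1620 to 3380 against 43.5 to 1900, and 233 to 1030. Muc19 weighs most in that sum in the diabetic arrays (10.62 to 11.70) and did not pass (limma adjusted p = 0.0853). It was at 2.03, 10.86 and 4.70 in the nondiabetic 21-week arrays. The part of all these marker shifts in the changes of Srebf1, Dgat2, Scd1 and Npc1 was not tested.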

How the data were processed

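RNA of 10 salivary gland samples was hybridised as biotin-labelled sense cDNA to Affymetrix arrays. The values used are those the authors deposited, log2 intensities after RMA. The submitters' processing notes name Affymetrix Power Tools for it, without version or settings. The platform's gene table gave 1 symbol to 23521 of 41345 probe sets, several to 1814 and none to 16010. A probe set with 1 symbol was kept if, on 3 or more arrays, it lay over the 25th percentile of that array, and a gene was read from its brightest kept probe set.

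All 10 arrays entered 1 model with a mean per group (lmFit and eBayes of limma 3.58.1, run under R 4.3.3, with 7 residual and 5.61 prior degrees of freedom). Tests were two-sided, adjusted by Benjamini-Hochberg over 18826 genes, threshold 0.05. The steps were tested on simulated data. No 2 arrays were identical (0 pairs). The number of arrays limits the precision.

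In each comparison, members past the threshold are named with their values, and the 8 with the smallest p where fewer than 8 passed, plus from each further pathway list those that passed and the 2 with the smallest p. Values of other members are shown beside these. The members and lists were chosen with earlier results of these data known. The 2 promoter windows shown were chosen after the values were seen. Alternatives were other filters, averaging all probe sets of a gene, a fit of the 2 groups alone, trended and robust variance, quantile normalization, median centring, the replicate number as a block and arrays left out.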

Additional observations from a re-analysis of the deposited data

Results flagged for a closer look

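Among the 29 members, the 4 diabetic values held 1 array set far from the others for 1 gene. Lss, the cyclase that forms lanosterol, was at 5.0 on diabetic array 4, with the nearest diabetic array at 5.26 and a gap of 0.84 of the group's range, past Dixon's 95% critical value for 4 samples. Chance alone sets apart about 1 in 20 such groups, and 29 were examined.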

How the results depend on the processing

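Srebf1 and Dgat2 kept their direction under every alternative run, while 9 of 29 members turned sign under at least 1 alternative in the comparison of diabetes, 9 in that of age and 6 in that against 6-week glands. With each array left out, the members past the threshold numbered 0 to 1 for diabetes, 0 to 0 for age and 0 to 1 for diabetic against 6-week glands, and all genes 84 to 268, 1 to 10 and 48 to 261. For diabetes the count was 84 without nondiabetic 21-week array 3, 162 without array 1, and 95 and 152 without diabetic arrays 3 and 2. For age it was 10 and 8 without nondiabetic 21-week arrays 2 and 3, and 2 and 1 without 6-week arrays 1 and 3. Against 6-week glands it was 98, 68 and 48 without 6-week arrays 1, 2 and 3, and 155 and 91 without diabetic arrays 2 and 3. The members called for diabetes were 2 with a filter at the array median, 0 without both arrays that stand apart and 0 with a replicate block (against 1). Against 6-week glands they were 2 without both arrays and 0 with a replicate block. All genes called for diabetes were 161 when only the 2 groups were fitted and 175 without both arrays, against 271. For age the calls were 0 with only the 2 groups, 12 with trended and robust variance and 39 without both arrays, against 5. Against 6-week glands they were 505 without both arrays, against 272. The cause was not tested.

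The labels give arrays of the same number nothing in common but that number. For such arrays the correlation of deviations from the group means was −0.118 to 0.066. Each array correlated best with its own number in 6 of 6 cases for age and 0 of 6 for the others. The matching correlations for age were small, 0.0287 to 0.066. Deviations sum to 0 within a group, so these cases depend on each other and cannot show a pairing. With a replicate block diabetic array 4 drops out for lack of a partner, and 204, 4 and 206 genes passed for diabetes, age and diabetic against 6-week glands. Weak signal limits Stard4 and Cyp51, and may limit Dgat2.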
